A study of Drosophila melanogaster with 3 samples.

Results

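Aminoacyl-tRNA synthetases join each amino acid to its tRNA, the step that sets which amino acid a codon brings to the ribosome. Animal cells keep one set of these enzymes in the cytoplasm and another, also encoded in the nucleus, in the mitochondrial matrix. Some enzymes serve both places. In mammals several of the cytoplasmic enzymes, LysRS among them, sit in a multisynthetase complex held together by the scaffold proteins AIMP1, AIMP2 and AIMP3. The genes described here are all those whose symbol in the deposited gene list is an amino acid name followed by RS, with or without the suffix -m for mitochondrial, and there were 35 of 17824 listed genes. Of these, 20 were cytoplasmic and 15 mitochondrial. The cytoplasmic symbols GlnRS, GlyRS, HisRS, LysRS and ThrRS had no -m gene of the same amino acid in the list. GluProRS had no -m gene of its own name, but the list held GluRS-m and ProRS-m.

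The cells came from the central brains of female Drosophila carrying Mef2(P247)-gal4 and UAS-nls.GFP, a driver and a nuclear marker that label Kenyon cells (KCs), the intrinsic neurons of the mushroom body. This driver labels γ and α/β cells more fully than α'/β' cells. There were 3 single-cell libraries, made with 3' chemistry from GFP-sorted cells. The first pooled day 0 flies homozygous for dSERT16, a deletion allele of the serotonin transporter gene, with flies of the control allele dSERT4. The second pooled day 0 flies homozygous for dSERT-TMKO, a CRISPR deletion of transmembrane domains of the transporter, with WT controls. The third pooled flies of day 4 to 6 from a dSERT-TMKO and WT comparison with WT flies fed citalopram (CIT), which blocks the transporter, or vehicle (VEH). Flies in each pool also carried chromosomes of different wild-derived lines. Cells were not traced to genotype or feeding here. Each library therefore counts as 1 sample in which mutant or drug-fed cells are mixed with control cells, and no value below sets mutant against control.

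The libraries held 3544, 9404 and 3089 barcodes in that order, of which 3294, 8523 and 2970 were clustered. Median depth was 3329, 6389 and 7127.5 UMIs per cell, a UMI being one counted molecule. Clusters were named KC-like, other neurons or glia from marker genes, and KC-like clusters were divided into γ, α/β and α'/β'. KC-like cells made up 92.4%, 25.6% and 98.6% of the clustered cells. Although the labels give Kenyon cells for every library, 57.2% of the TMKO/WT day 0 cells lay in clusters named glia and 13.0% in clusters left unnamed, the larger of which, with 986 cells, also carried the glial markers repo, nrv2, moody and zyd. There were 1904, 1324 and 1499 γ cells, 936, 607 and 1293 α/β cells, and 189, 248 and 137 α'/β' cells. The α'/β' class of the TMKO/WT day 0 pool was mixed, because 125 of its 248 cells carried more UMIs of another subtype's markers when cells were classed one by one. Finer clustering, at Leiden resolution 0.6 in place of 0.3, showed 2 more mixed classes. It moved 74 of the 162 other neurons of the dSERT4/dSERT16 pool into a cluster with the glial markers repo, nrv2, wrapper and zyd, which left 88 other neurons, and it moved 20 of the 137 α'/β' cells of the day 4 to 6 pool into a cluster with repo, alrm and Eaat1. Values at this resolution are given for these mixed classes, beside the main levels and ratios of LysRS and the family sums. They were added after the data had been seen. Levels below are CPM, each gene's UMIs divided by all UMIs of its class and multiplied by the same constant, with exact Poisson 95% intervals, which cover counting error only, as do all other intervals given here.

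LysRS, which charges tRNA with lysine, was the most abundant synthetase transcript of the KC-like cells in all 3 libraries. Its level in KC-like cells was 94.9 CPM in the dSERT4/dSERT16 pool, 124.2 CPM in the TMKO/WT day 0 pool and 194.0 CPM in the day 4 to 6 pool. The mean was 137.7 ± 50.9 CPM (SD, n = 3 libraries), and the spread is that between different pools, not between replicates. ThrRS followed at 41.7 ± 2.09 CPM (SD, n = 3) and TyrRS, which charges tyrosine, at 36.9 ± 6.82 CPM (SD, n = 3). In each pool the lower bound of LysRS lay above the upper bound of both. The next members, from AspRS-m at 20.7 ± 5.43 CPM (SD, n = 3) through GlyRS, PheRS-m and AsnRS to HisRS, had overlapping ranges over the libraries. Values are counts of 3' ends and were not divided by gene length, which 3' chemistry does not require.

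**Figure D1:**
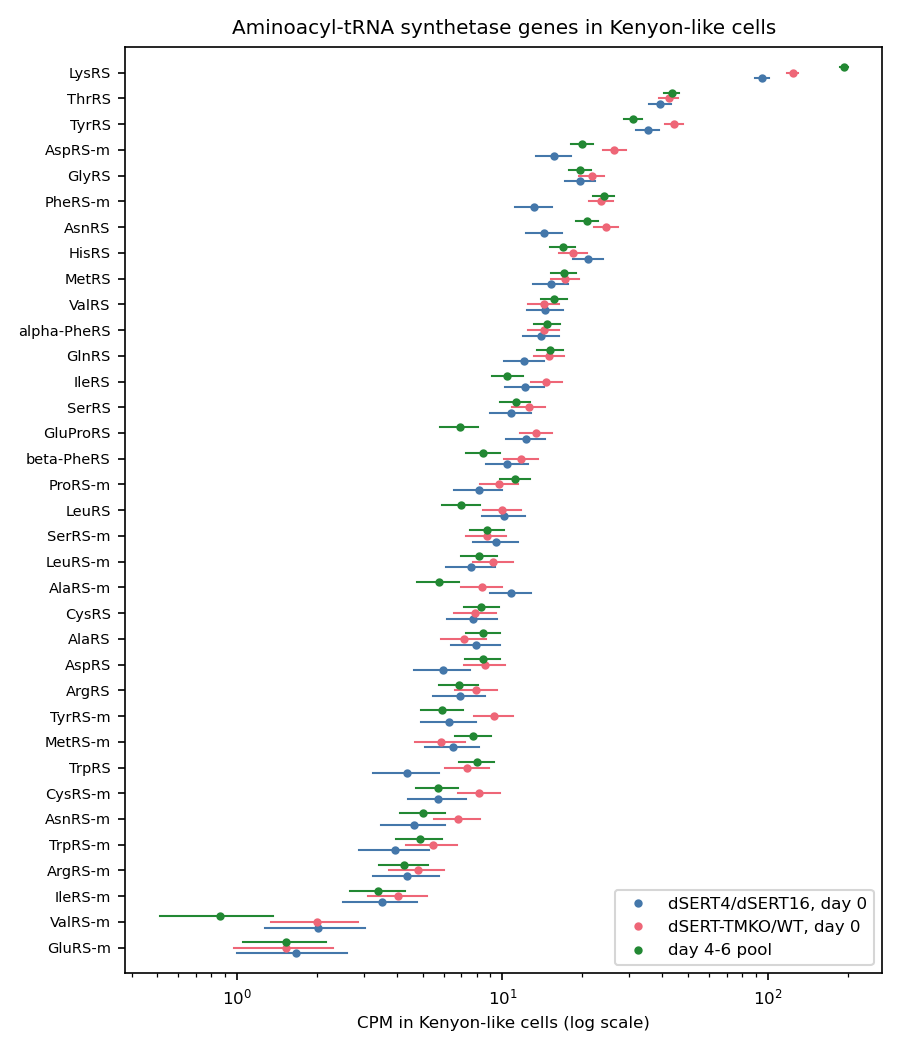
Level of each of the 35 synthetase genes in KC-like cells, in CPM on a log scale, with 1 point and exact 95% Poisson interval per library. Genes are ordered by their mean, and LysRS lies apart from the rest with 94.9, 124.2 and 194.0 CPM.

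Mitochondrial members were the less abundant group. The 3 highest were AspRS-m at 20.7 CPM, PheRS-m at 20.3 CPM and ProRS-m at 9.67 CPM on the mean over libraries, enzymes for aspartate, phenylalanine and proline. By the same mean the lowest was GluRS-m, with 1.67, 1.53 and 1.53 CPM in the 3 libraries, and the lowest cytoplasmic member was TrpRS, with 4.38, 7.383 and 7.999 CPM. Neither was lowest in every library, since ValRS-m stood below GluRS-m at 0.862 CPM in the day 4 to 6 pool and AlaRS below TrpRS at 7.183 CPM in the TMKO/WT day 0 pool. Summed over the 15 mitochondrial genes, KC-like cells had 103.5, 134.0 and 117.3 CPM and other neurons 143.0, 192.8 and 183.3 CPM, higher in every library, with 165.6 CPM in place of 143.0 CPM at the finer clustering. The 19 cytoplasmic genes other than LysRS summed to 274.4, 313.9 and 278.4 CPM in KC-like cells and 274.0, 333.0 and 300.6 CPM in other neurons, with 303.4 CPM in place of 274.0 CPM at the finer clustering. All 34 members other than LysRS together were lower in KC-like cells in every library, at 377.9, 447.8 and 395.7 CPM against 417.1, 525.8 and 483.9 CPM. In the dSERT4/dSERT16 pool the intervals overlapped, at 366.7 to 389.3 CPM in KC-like cells and 380.7 to 455.9 CPM in other neurons. At the finer clustering the other neurons of that pool had 468.9 CPM (424.4 to 516.9).

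LysRS itself was concentrated in 2 of the 3 KC subtypes. Cells of the α/β class had 129.7, 190.1 and 244.5 CPM of LysRS in the dSERT4/dSERT16, TMKO/WT day 0 and day 4 to 6 pools. In γ cells it stood at 84.6, 107.6 and 174.3 CPM in the same order. In α'/β' cells it stood at 28.9, 86.3 and 26.6 CPM, the value of 86.3 CPM coming from the mixed class. Counts in α'/β' cells were small, with 24, 124 and 27 UMIs of LysRS. That value moved with the choice of cells. It was 59.8 CPM at the finer clustering, where the α'/β' class of that pool held 132 cells, and 26.7 CPM from 24 UMIs when no doublets were removed, where the class held 116 cells. At the finer clustering the day 4 to 6 value was 29.2 CPM in 117 cells.

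Outside the KC classes LysRS stood lower. Other neurons had 12.9, 18.6 and 20.6 CPM of LysRS in the 3 libraries, where it ranked 12, 8 and 6 of 35. In the 88 other neurons that finer clustering left in the dSERT4/dSERT16 pool it had 13.9 CPM from 12 UMIs, rank 14. Glia had 18.4 CPM from 7 UMIs in the dSERT4/dSERT16 pool and 6.26 CPM from 187 UMIs in the TMKO/WT day 0 pool, ranks 5 and 19. At the finer clustering the 162 glia of the dSERT4/dSERT16 pool had 14.7 CPM from 10 UMIs. In the day 4 to 6 pool no cluster was named glia at the coarser clustering, and other neurons numbered 41 cells. The 20 glia of the finer clustering had 0 LysRS UMIs, with an upper 95% bound of 40.5 CPM. The level of LysRS in KC-like cells exceeded that in other neurons 7.35-fold (95% interval 4.43 to 13.2), 6.69-fold (5.47 to 8.26) and 9.42-fold (5.12 to 19.7), the first being 6.83-fold (3.90 to 13.3) at the finer clustering. Against glia the ratio was 5.17 (2.50 to 12.9) and 19.8 (17.1 to 23.2), the first being 6.44 (3.49 to 13.5) at the finer clustering.

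No other member was 1.5-fold or more higher than in other neurons in all 3 libraries. MetRS was so in both day 0 pools, but not in the dSERT4/dSERT16 pool at the finer clustering. Of the 25, 23 and 21 members with at least 10 CPM in one of the compared classes, 5, 2 and 3 were 1.5-fold or more higher in KC-like cells, against 17.3%, 13.6% and 18.4% of all genes. LysRS was the one member of these sets with an interval above 1 in all 3 libraries. Their median ratio, LysRS included, was 0.933, 0.826 and 0.777, and that of all genes 0.844, 0.924 and 0.923. In the other direction 8, 4 and 7 members were 1.5-fold or more lower in KC-like cells, against 36.2%, 26.6% and 28.2% of all genes. PheRS-m was lower in each, with ratios of 0.509 (0.342 to 0.780), 0.521 (0.441 to 0.615) and 0.488 (0.324 to 0.768). At the finer clustering 3 of 25 members of the dSERT4/dSERT16 pool were higher and 9 lower, their median ratio was 0.782, and PheRS-m had 0.392 (0.262 to 0.605). With 1 library a group these ratios have no replicate check, and no test was made.

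Against glia the family was less uniform. In the TMKO/WT day 0 pool 10 of 17 members were 1.5-fold or more higher in KC-like cells and none was lower, against 50.8% and 25.9% of all genes. ThrRS, with 42.3 CPM in KC-like cells and 10.3 CPM in glia, followed LysRS with a ratio of 4.09 (3.56 to 4.70). TyrRS stood at 44.4 and 39.1 CPM, a ratio of 1.13 (1.03 to 1.25). In the dSERT4/dSERT16 pool, with only 88 glia-like cells, 8 of 23 members were higher and 5 lower, against 48.1% and 29.2% of all genes.

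**Figure D2:**
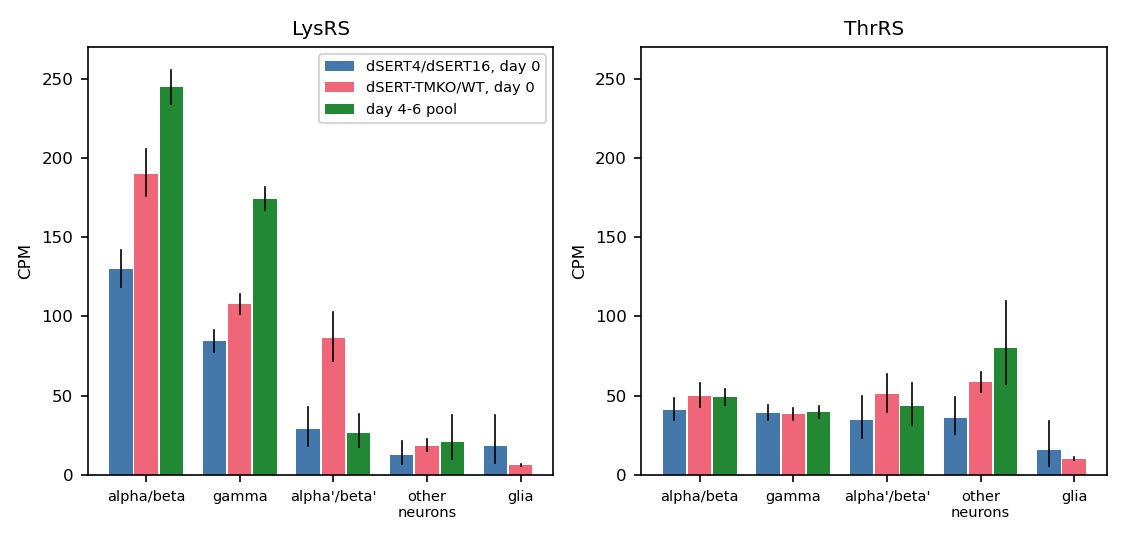
CPM of LysRS and, for comparison, of ThrRS in each cell class, with 1 bar per library and exact 95% Poisson intervals as lines. LysRS ranges from 84.6 to 244.5 CPM in the γ and α/β classes and from 6.26 to 20.6 CPM in other neurons and glia, whereas ThrRS reaches its highest value in other neurons of the day 4 to 6 pool. The day 4 to 6 pool has no glia bar because none of its clusters was named glia at this resolution, and the dSERT4/dSERT16 bar for other neurons comes from the mixed class.

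The same pattern appeared in the share of cells with at least 1 UMI of LysRS. That share was 34.4%, 59.5% and 61.7% in α/β cells and 23.2%, 50.9% and 58.3% in γ cells. Glia of the TMKO/WT day 0 pool had a share of 3.71% at a median of 5884 UMIs per cell, where γ cells had a median of 7590 and α/β cells 5526. The γ and α/β shares of that library lay far above that of its glia. How much of the glial count came from free RNA was not tested. Between libraries the shares also follow depth, since the median in γ cells was 3187.5 UMIs in the dSERT4/dSERT16 pool and 8238 in the day 4 to 6 pool.

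The excess of LysRS gave it a large part of the cytoplasmic synthetase transcripts. Of all UMIs from the 20 cytoplasmic genes, LysRS made up 25.7% (exact binomial 95% interval 24.4 to 27.1), 28.3% (27.3 to 29.5) and 41.1% (40.1 to 42.0) in KC-like cells. The share was 31.7%, 36.3% and 45.3% in α/β cells and in γ cells 23.7%, 26.4% and 39.7%. In other neurons it was 4.50% (2.54 to 7.32), 5.28% (4.32 to 6.38) and 6.41% (3.12 to 11.5).

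The 3 KC subtypes were then compared with the libraries as blocks, in edgeR's quasi-likelihood test on summed UMIs over 6859 genes. Calls required a fold of at least 1.5 together with a Benjamini-Hochberg adjusted p no higher than 0.05. The SE of a log2 fold change was derived here, as its size divided by the square root of the test's F statistic. Of the 35 members 33 passed the filter on low counts, GluRS-m and ValRS-m being the exceptions. Between α/β and γ cells no member was called in either direction, against 5.37% of all genes called higher and 5.45% lower in α/β. One member, HisRS, had an unadjusted p under 0.05 in edgeR, with a log2 fold change of 0.49 ± 0.15 (SE) and an adjusted p of 0.0692, and DESeq2 also called 0 members. LysRS was higher in α/β in 3 of 3 libraries, with ratios of 1.53 (1.36 to 1.74), 1.77 (1.60 to 1.95) and 1.40 (1.32 to 1.49). Its fitted log2 fold change was 0.64 ± 0.33 (SE), with an edgeR adjusted p of 0.290, so the difference did not pass. LysRS passed in 3 of 11 alternative settings, with adjusted p from edgeR or DESeq2 between 0.00420 and 0.698 over all of them. Among those 3, leaving out the day 4 to 6 pool gave a log2 fold change of 0.70 and an adjusted p of 0.00777.

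Between α'/β' and γ cells 2 members were called lower and none higher, against 5.55% and 5.61% of all genes. LysRS fell by 1.42 ± 0.39 (SE) on the log2 scale in α'/β', with an edgeR adjusted p of 0.0495. Its ratio was below 1 in 3 of 3 libraries, at 0.342 (0.217 to 0.513), 0.802 (0.660 to 0.966) in the mixed class and 0.152 (0.100 to 0.222). At the finer clustering the ratio was 0.545 in the TMKO/WT day 0 pool and 0.167 in the day 4 to 6 pool. AspRS-m, the mitochondrial aspartyl enzyme, had 8.43, 20.9 and 12.8 CPM in α'/β' cells, from 7, 30 and 13 UMIs, and 16.7, 25.8 and 20.3 CPM in γ cells. It fell by 0.68 ± 0.16 (SE), with an edgeR adjusted p of 0.0259, and was lower in 3 of 3 libraries. Its α'/β' intervals were wide, at 3.39 to 17.4, 14.1 to 29.8 and 6.81 to 21.9 CPM, and each covered the γ level of its library. TyrRS had an edgeR adjusted p of 0.0144 but a log2 difference of 0.54, below the required fold.

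Between α'/β' and α/β cells 3 members were called lower and 1 higher, against 7.6% and 8.44% of all genes. LysRS fell by 2.05 ± 0.39 (SE) on the log2 scale in α'/β', with an edgeR adjusted p of 0.00962. Its highest α'/β' level was 86.3 CPM and its lowest α/β level 129.7 CPM. AspRS-m fell by 0.73 ± 0.16 (SE), with an edgeR adjusted p of 0.0153. HisRS, the histidyl enzyme, had 14.4, 20.9 and 13.8 CPM in α'/β' cells, from 12, 30 and 14 UMIs, and 24.7, 25.1 and 20.5 CPM in α/β cells. Its fall in α'/β' was 0.59 ± 0.17 (SE) at an edgeR adjusted p of 0.0498. HisRS overlaps Bx on the same strand, so part of its count is uncertain. TyrRS was the member called higher, with 53.0, 68.9 and 47.2 CPM in α'/β' and 31.3, 40.2 and 27.2 CPM in α/β cells. The log2 fold change of TyrRS was 0.69 ± 0.11 (SE) with an edgeR adjusted p of 0.00368.

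Within single libraries, of the 18, 21 and 18 members at 10 CPM or more, 1, 3 and 4 were 1.5-fold or more higher in α/β than in γ cells, against 8.15%, 10.3% and 8.79% of all genes, and 2, 0 and 0 were lower, against 11.4%, 8.74% and 7.17%. For α'/β' against γ cells the counts were 3 of 18, 8 of 23 and 4 of 21 higher, against 16%, 19.2% and 21.8%, and 5, 1 and 2 lower, against 13.8%, 7.6% and 9.67% of all genes. LysRS was among the lower members in 2 of the 3 libraries, the mixed class being the exception. In the TMKO/WT day 0 pool at the finer clustering 3 of 22 members were higher and 3 lower, against 648 and 429 of 5427 genes. In the day 4 to 6 pool 6 of 20 were then higher and 2 lower, against 1013 and 561 of 5443 genes. At that clustering LysRS was among the lower members in both pools.

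The calls across libraries rested on few sums. Without the dSERT4/dSERT16 pool no member was called in any of the 3 comparisons, although LysRS kept its direction in each, with log2 changes of -1.47 against γ (adjusted p of 0.260) and -2.08 against α/β (0.121) in edgeR. The size of the LysRS difference moved with the libraries, to -2.25 against γ and -2.83 against α/β without the TMKO/WT day 0 pool and to -0.85 and -1.55 without the day 4 to 6 pool. Of 11 alternative settings the call of LysRS was lost in 2 against γ and in 1 against α/β, that of TyrRS in 3, that of AspRS-m in 6 against either subtype and that of HisRS in 7.

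**Figure D3:**
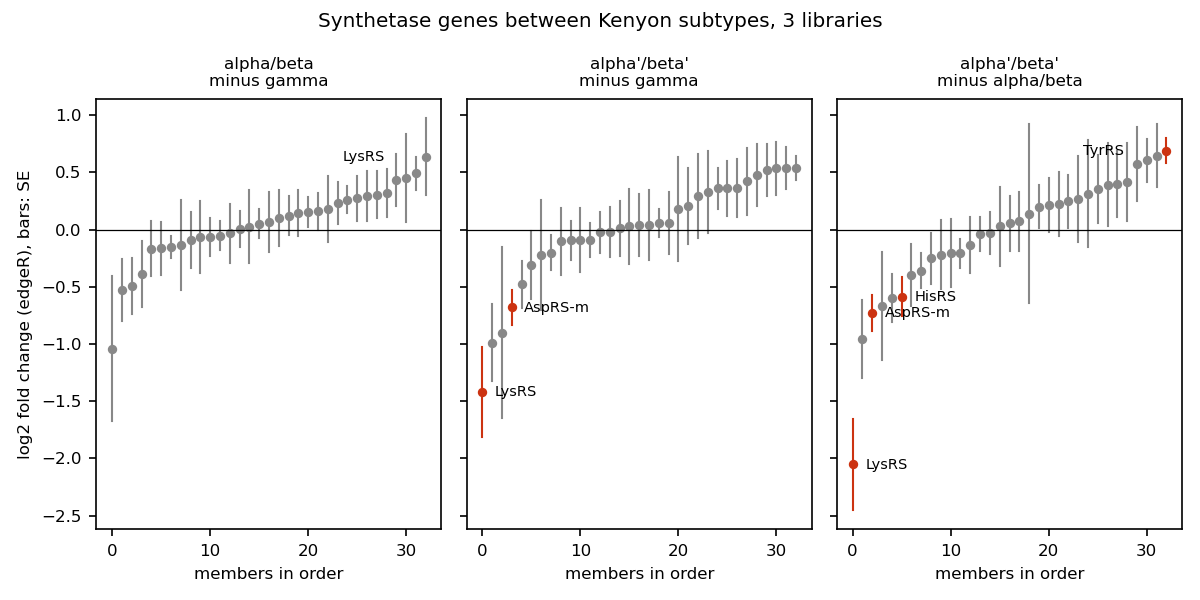
Log2 fold change from edgeR, with an SE derived from its F statistic, for the 33 tested synthetase genes in each comparison of KC subtypes, ordered from lowest to highest. Called members are red, LysRS has the lowest value in both comparisons of α'/β' cells at -1.42 and -2.05, and no member is red in α/β against γ.

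The accessory genes fixed beside the family gave few calls across subtypes. Over all genes the share called in one direction lay between 5.37% and 8.44% in the 3 comparisons, so few calls are to be had from lists this short. None of AIMP1, AIMP2 and AIMP3 was called. AIMP3 was the most abundant of them, at 71.0, 112.7 and 81.8 CPM in KC-like cells, and AIMP1 had a log2 difference of 0.60 ± 0.17 (SE) between α'/β' and γ cells at an edgeR adjusted p of 0.0525. No call was made among 7 elongation factors, which deliver charged tRNA to the ribosome or move it on. Their log2 changes lay between -0.52 and 0.42. Of 9 amino acid stress genes 7 were tested and none was called, with log2 changes between -0.67 and 0.41. Of 7 amino acid transporters, JhI-21, whose product carries leucine and related amino acids, differed in all 3 comparisons. Its level was 17.2, 12.8 and 4.63 CPM in γ cells, 4.95, 3.84 and 1.75 CPM in α/β cells and 43.3, 26.4 and 18.7 CPM in α'/β' cells, opposite in order to LysRS. It was higher in α'/β' than in α/β cells by 2.99 ± 0.23 (SE) on the log2 scale, with an edgeR adjusted p of 0.000182. The transporter gene path fell by 1.17 ± 0.25 (SE) in α/β against γ cells, at an edgeR adjusted p of 0.0203.

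LysRS (FBgn0027084) lies on chromosome X at chrX:9606363-9608884, minus strand, of the dm6 assembly, and overlaps no other annotated gene. The annotation gives 3 transcripts with coding lengths of 1722 bases in one and 1821 bases in the others. The coding starts lie at 9608750 and 9608552. In humans a single LysRS gene supplies both the cytoplasmic and the mitochondrial enzyme through alternative transcripts, and 3' counts cannot tell such transcripts apart. Over the whole family 16 members overlap a gene on the opposite strand and 2, AspRS and HisRS, a gene on the same strand.

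The genes next to LysRS were read in the same classes, chosen after the LysRS values were seen. Lst8, 393 bases beyond its 3' end on the same strand, had 16.42, 19.98 and 17.35 CPM in γ cells and 12.4, 13.3 and 12.1 CPM in α/β cells. CG42797, which starts 61 bases from LysRS on the opposite strand, had 22.8, 25.9 and 32.0 CPM in KC-like cells and 35.3, 57.9 and 53.5 CPM in other neurons. CG42797 did not show the KC excess of LysRS. Lst8 is given here only for γ and α/β cells, where its order was the reverse of that of LysRS. A further neighbour, Gga at 2082 bases, is not described. Ptpmeg2, a tyrosine phosphatase gene upstream on the same strand, stood at 359.8, 359.2 and 482.4 CPM in KC-like cells and 311.9, 417.9 and 428.3 CPM in other neurons. Ptpmeg2 and CG42797 were called lower in α'/β' than in α/β cells, by 0.69 ± 0.10 and 0.82 ± 0.16 (SE) on the log2 scale, with edgeR adjusted p of 0.00297 and 0.0112. Their part in the LysRS result was not tested.

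Within subtypes LysRS also varied between clusters. In the day 4 to 6 pool a γ cluster of 315 cells had 282.8 CPM (95% interval 261.4 to 305.5) and the other γ cluster, of 1184 cells, 148.5 CPM (140.9 to 156.4). In the dSERT4/dSERT16 pool a γ cluster of 406 cells had 111.7 CPM (96.5 to 128.6), and those of 836 and 662 cells had 78.2 and 71.4 CPM. The cluster of 662 cells was led by mitochondrial genes, and without it γ cells of that pool had 90.7 CPM. The 3 α/β clusters of the day 4 to 6 pool had 267.8, 202.3 and 138.3 CPM. Member genes were left out of the clustering.

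The spread of LysRS between cells of one class was also measured. After each cell was thinned to 3000 UMIs, a Poisson count would have a variance equal to its mean. The ratio of variance to mean for LysRS was 1.12, 1.17 and 1.38 in γ cells and 1.10, 1.31 and 1.53 in α/β cells. The median over the other members lay between 0.987 and 1.06 in the same 6 classes. The highest of the other members reached 1.27, 1.14 and 1.22 in γ and 1.66, 1.32 and 1.27 in α/β cells, above LysRS in both classes of the dSERT4/dSERT16 pool and in α/β cells of the TMKO/WT day 0 pool. Only 4 to 11 of the 35 members had a mean of at least 0.05 UMIs per thinned cell. For the rest the ratio is poorly set and tends to lie near 1. The median is therefore a weak comparator for LysRS, and the ratios are given without intervals. In α/β cells of the day 4 to 6 pool 46.6% of thinned cells had a LysRS UMI, where a Poisson count of the same mean gives 54.0%. For ThrRS there the values were 13.4% and 14.0%. Thinning left out 860, 28 and 113 γ cells and 371, 77 and 115 α/β cells. Each pool mixed genotypes and, at day 4 to 6, feeding groups. The γ class of the dSERT4/dSERT16 pool and both classes of the day 4 to 6 pool also join clusters that differ in LysRS. The part of these in the spread was not tested.

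The pools themselves were compared within γ and within α/β cells. Both comparisons share the TMKO/WT day 0 pool, each has 1 library a group and no replicate check, and age, alleles, feeding and library cannot be told apart. LysRS in γ cells was 1.27-fold (1.15 to 1.41) higher in the TMKO/WT than in the dSERT4/dSERT16 day 0 pool, and 1.62-fold (1.5 to 1.74) higher in the day 4 to 6 pool than in the TMKO/WT day 0 pool. The corresponding α/β ratios were 1.47 (1.30 to 1.65) and 1.29 (1.18 to 1.41). ThrRS had ratios of 0.989, 1.03, 1.21 and 0.981 in the same order, with each interval including 1.

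Between the day 0 pools 3 of 17 members in γ cells were at least 1.5-fold higher in TMKO/WT and 1 lower, against 13.5% and 10.4% of all genes. AsnRS had a ratio of 1.73 (1.36 to 2.21), PheRS-m 1.69 (1.31 to 2.22) and AspRS-m 1.54 (1.23 to 1.94), whereas AlaRS-m had 0.582 (0.427 to 0.792). In α/β cells 6 of 21 members were higher and none lower, against 17.3% and 7.19% of all genes. Of these 6, PheRS-m at 2.32 (1.61 to 3.38), AspRS-m, GlnRS and TrpRS at 2.03 each and AsnRS at 1.68 had intervals above 1. AsnRS, PheRS-m and AspRS-m were thus past 1.5-fold in both subtypes, although in γ cells the count of higher members was near the share over all genes. In α/β cells AsnRS was no longer past 1.5-fold at 2000 UMIs per cell or with cells classed one by one. AIMP3 was higher as well, with ratios of 1.55 (1.39 to 1.74) in γ and 1.67 (1.43 to 1.94) in α/β cells.

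From the TMKO/WT day 0 pool to the day 4 to 6 pool LysRS was the one γ member of 17 at least 1.5-fold higher and 3 were lower, against 9.3% and 5.98% of all genes. GluProRS, a single protein that charges both glutamate and proline, had a ratio of 0.533 (0.404 to 0.700), IleRS 0.532 (0.405 to 0.696) and beta-PheRS, a subunit of the cytoplasmic phenylalanine enzyme, 0.606 (0.455 to 0.805). In α/β cells no member of 22 was higher and 5 were lower, against 12.8% and 9.14% of all genes. GluProRS had the lowest ratio there, at 0.416 (0.274 to 0.629), followed by CysRS-m at 0.549 (0.343 to 0.885), LeuRS at 0.603 (0.391 to 0.938) and AspRS-m at 0.665 (0.517 to 0.858). AIMP3 had ratios of 0.799 (0.732 to 0.872) in γ and 0.617 (0.546 to 0.697) in α/β cells.

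**Figure D4:**
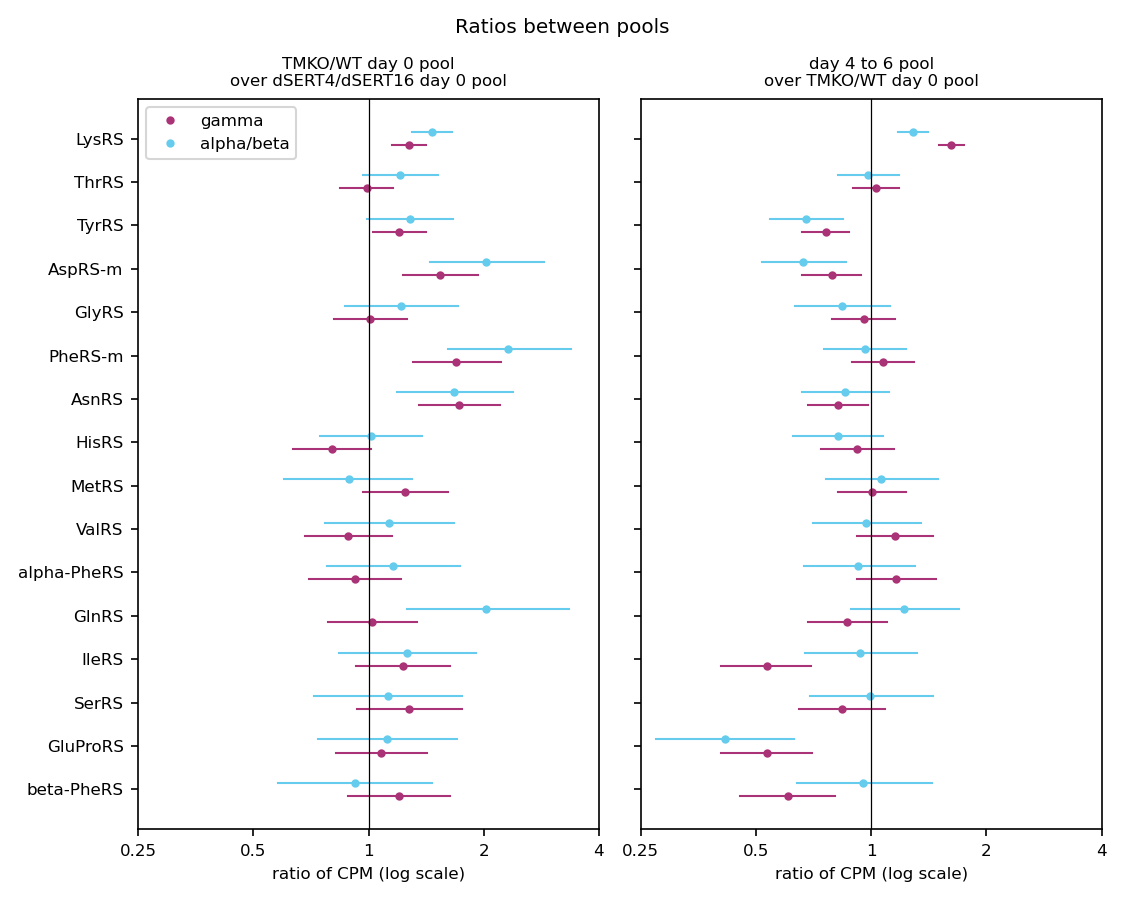
Ratio of CPM between pools, on a log scale with exact 95% intervals, for the 16 members with a mean of at least 10 CPM in KC-like cells, in γ and α/β cells. LysRS lies above 1 in all 4 cases, at 1.27 and 1.47 on the left and 1.62 and 1.29 on the right, while GluProRS lies at 0.533 and 0.416 on the right.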

How the data were processed

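Brains were pooled per library and GFP-positive cells sorted before 10x 3' library preparation. The authors deposited, per library, raw UMI counts for each gene and barcode, made per the labels with Cell Ranger 7.0.0 on dm6. The 4 deposited comparison tables hold the authors' own fold changes and p-values per cell type for mutant against control and CIT against VEH, and were not used. Groups were taken from the sample titles.

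Barcodes under 1000 UMIs or over 20% mitochondrial UMIs were dropped, doublets were removed (5, 326 and 26; the caller marked only 0.152% in the first library), and each library was clustered alone (scanpy 1.11.5, Leiden resolution 0.3, 10 principal components) without member genes. The libraries shared 10, 1 and 11 barcodes by pair. Clusters were named from listed markers by a rule set after the clusters were seen. A subtype name needed 3 markers of its list, among them ab for γ, 5-HT1A for α/β or CG8641 for α'/β'. Of the markers, Ca-alpha1T, listed for α'/β', led α/β clusters. Others were shared as well. In the day 0 pools sNPF, listed for α/β, also counted as present in γ clusters, and chinmo and 5-HT1B, listed for γ, in α/β clusters. UMIs were summed per library and subtype and tested with edgeR 4.0.16 (TMM, library block, Benjamini-Hochberg adjustment). A self-test on simulated counts covered α/β against γ cells only. Its simulated libraries differed in size alone, so it does not bear on the α'/β' calls. Ratios used exact conditional binomial intervals and genes of at least 10 CPM in either class. The members and lists were chosen with earlier results of these data known. Genes named are LysRS, the highest and lowest members of each compartment, members past a threshold and AIMP1 to AIMP3; JhI-21, path and the neighbours of LysRS were named after their values were seen. Coordinates come from Ensembl release 115 of the same assembly, in which 35 of 35 members matched. Alternatives covered DESeq2 1.42.0, RLE factors, filters, the block, each library left out, depth, doublets, resolution and marker-based classing of single cells.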

Additional observations from a re-analysis of the deposited data

Results flagged for a closer look

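GlnRS, the glutaminyl enzyme, differed between α/β and γ cells in opposite directions in 2 pools. Its α/β level was 0.559 times the γ level in the dSERT4/dSERT16 pool (95% interval 0.352 to 0.860) and 1.56 times in the day 4 to 6 pool (1.23 to 1.97). These ratios rest on 28 and 94 UMIs in the first pool and 152 and 145 in the other, and the difference between pools was not tested.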

How the results depend on the processing

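Counts of members past the threshold moved with the processing, whereas the direction of LysRS in the 3 subtype comparisons, and of the called AspRS-m, HisRS and TyrRS, held in all 11 alternatives. For α/β against γ cells the count was 0, and 1 with Leiden resolution 0.6 and with cells classed one by one, LysRS being the member in both. For α'/β' against γ it was 2, and 1 in DESeq2, 0 without the library block and 1 by single-cell classing. For α'/β' against α/β it was 4, and 2 in DESeq2 and 1 without the block. Leaving out a library gave 0 to 2, 0 to 2 and 0 to 3 members in the 3 comparisons. Over all genes the calls were 742, 766 and 1100, without the block 426, 264 and 620, and with a library left out 360 to 927, 177 to 786 and 635 to 1160.

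Between the day 0 pools the members past 1.5-fold numbered 4 in γ and 6 in α/β cells, 0 and 0 at a minimum of 50 CPM, where 1 member was left, 7 and 13 of 35 with no minimum, where 45.8% and 45.9% of all genes passed, and in α/β 3 at 2000 UMIs per cell and 3 by single-cell classing. Between the day 4 to 6 and TMKO/WT day 0 pools they numbered 4 and 5, 1 and 0 at 50 CPM, again of 1 member, 7 of 35 in γ with no minimum, where 42.0% of all genes passed, and in α/β 2 at 2000 UMIs and 3 by single-cell classing. Thinning to 2000 UMIs gave LysRS variance over mean of 1.08 in TMKO/WT day 0 α/β cells and of 1.26 and 1.32 in γ and α/β cells of day 4 to 6. Apart from alternatives that leave out samples or genes, the cause was not tested.

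The planned tests of other neurons and of glia against KCs were not run, since they needed 50 cells in every library and the day 4 to 6 pool held 41 other neurons and, at Leiden resolution 0.6, 20 glia. Counts limit LysRS outside γ and α/β cells, with 24 and 27 UMIs in α'/β' cells of 2 libraries, 15 and 10 in other neurons of the same 2 and 7 in glia of one. The removal of the γ cluster led by mitochondrial genes was chosen after seeing the data.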
